A study of Mus musculus with 10 samples.

Results

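MHC class II presentation genes were followed in mouse tongue across treatment with an inhibitor of the histone demethylase LSD1. The 10 genes were taken by name and not by a cut on their values, but with earlier results of these data known. They were the class II chain genes H2-Aa, H2-Ab1 and H2-Eb1, the invariant chain gene Cd74 and the protease gene Ctss. The others were the peptide editor genes H2-DMa and H2-DMb1, the genes of the editor's inhibitor H2-Oa and H2-Ob, and the transactivator gene Ciita. All 10 were found among the 27151 genes of the deposited table. The mice were C57BL/6J animals that had all been given 4NQO, an oral carcinogen, and then either vehicle (4 tongue libraries) or SP2509, the LSD1 inhibitor (6 tongue libraries). Both groups carried the 4NQO exposure, so no library shows the tongue without it. The titles of the treated samples read SP2509h, which the labels do not explain, and the sources used here give no dose, duration or age.

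Class II molecules carry peptides from internalised protein to CD4 T cells. The alpha and beta chains assemble on the invariant chain CD74, proteases such as cathepsin S trim CD74 in the endosome, and H2-DM exchanges its last fragment for an antigenic peptide. H2-O restrains H2-DM, mainly in B cells. Dendritic cells and B cells express the class II chain genes constitutively. Macrophages raise them and keratinocytes acquire them after interferon gamma, and in each case expression runs through CIITA. CIITA is itself brought to the genes by the RFX, CREB and NF-Y factors bound to the X and Y boxes of their promoters.

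The promoters show what these genes share in sequence. Windows from 250 bases before to 50 bases after the start (RefSeq, GRCm38.p6) were held for 7 of the 10 genes. In 5 of the 7 the letters GNAAC, from the X box, were followed 15 to 45 bases later by TGATTGG, the core of the Y box, on the same strand, with both strands searched. This pair stood in 0.852% of all 32851 windows. A longer X box pattern, GNAAC and then ATGATG after any 2 bases, contains GNAAC and occurred in H2-DMb1, H2-Eb1 and H2-Ob and in 0.0517% of all windows, and TGATTGG alone occurred in 7.82%. The letters were chosen after the promoters had been read, so the matches are a description. The stretches of H2-Aa, H2-Eb1 and H2-Ob are shown because genes with fold changes near 1 and the gene that was called lower both hold them. Capitals mark the GNAAC and TGATTGG matches.
H2-Aa (chr17:34287859-34287912, minus strand): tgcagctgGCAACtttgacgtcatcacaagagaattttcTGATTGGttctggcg
H2-Eb1 (chr17:34305768-34305820, plus strand): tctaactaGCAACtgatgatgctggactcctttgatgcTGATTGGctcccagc
H2-Ob (chr17:34238810-34238860, plus strand): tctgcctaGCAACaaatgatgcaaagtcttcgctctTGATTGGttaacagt

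Counted from the RefSeq starts, the Y box letters began 45 to 63 bases before the start in the 5 genes, and 23 to 26 bases separated them from GNAAC. The gene coordinates below come from GENCODE, whose starts can differ from RefSeq's, and the stretches of H2-DMb1 and H2-Oa overlap GENCODE exons and are not shown. The 2 windows of H2-DMa and the window of Ctss did not hold the pair. The Ctss window held GAAA, any 2 bases and GAAA again, letters of the interferon-stimulated response element. This pattern occurred in 3.44% of all windows and in no other of the 7 genes. It is shown because Ctss had a larger fold change than the class II chains, with capitals on the match.
Ctss (chr3:95526745-95526785, plus strand): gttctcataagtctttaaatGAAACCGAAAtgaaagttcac

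The values are read counts per gene scaled by 1 factor per library, called normalised reads below. The libraries held 9180844 to 14768955 reads in vehicle and 15748571 to 19375555 in SP2509, of which mitochondrial genes took 35.3% to 52.1% and 24.0% to 32.2%. SP2509 replicates 1 and 2, and replicates 4 and 5, were closer to each other than any other pair of a group, with a median log2 difference of 0.0564 to 0.0585 at genes of 1000 to 5000 normalised reads against 0.112 to 0.442 elsewhere. Means of SP2509 are therefore given over 4 units with these pairs averaged, and the pairs-averaged adjusted p is given beside the called genes and the members near the threshold. With the pairs averaged limma called no gene of the table, so every call below is a call on 10 libraries. SP2509 replicate 6 stood apart from the other 5 SP2509 libraries (0.431 to 0.442), with the lowest summed level of 5 keratinocyte genes (44607 normalised reads) and the highest of 4 skeletal muscle genes (487489). SP2509 replicates 4 and 5 held the mucous gland gene Muc5b at 270597 and 281216 normalised reads, against 644 or less in every other library. Keratinocyte and muscle genes, the main markers of tongue, were abundant in every library. Nothing in the labels ties a library to a separate animal. The p-values therefore rest on library spread that may be partly technical.

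Per kilobase of exon, the members spanned from 768 normalised reads per kilobase for Cd74 to 5.02 for H2-Oa in vehicle. Between them H2-Eb1 stood at 349, H2-Ab1 at 301, H2-Aa at 183, Ctss at 77.1, H2-DMb1 at 62.8, H2-DMa at 36.0, Ciita at 10.2 and H2-Ob at 6.94 normalised reads per kilobase. The vehicle ranges of neighbours overlapped between Ctss and H2-DMb1, between H2-DMb1 and H2-DMa, between Ciita and H2-Ob and between H2-Ob and H2-Oa, and were apart at the other steps. The order of the group means was the same in SP2509. H2-Ea-ps, the alpha chain partner of H2-Eb1 that the b haplotype of C57BL/6 mice does not express, was at 0 to 13.0 normalised reads per library, so H2-Eb1 transcripts were present beside almost none of their partner. 

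**Figure D1:**
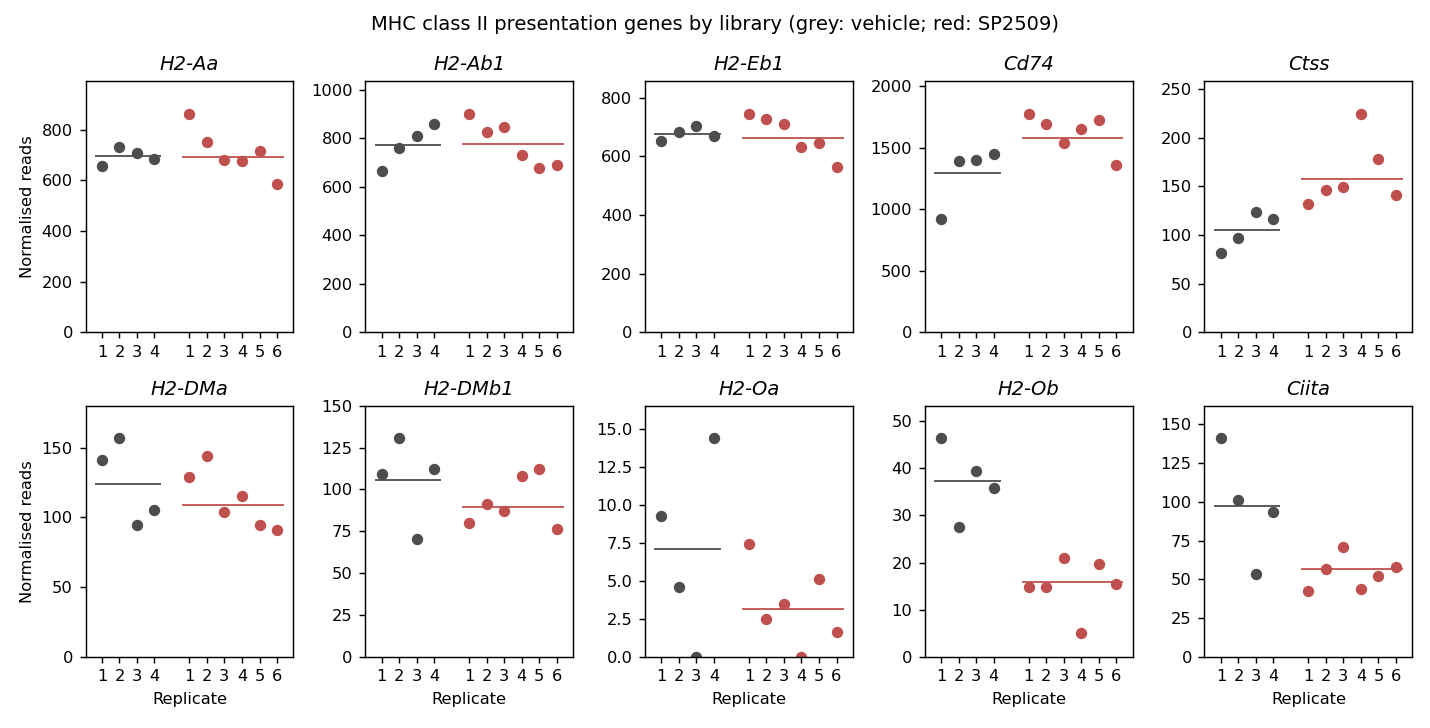
Normalised reads (y axis, from 0, with its own scale for each gene) of the 10 members in every library (x axis, replicate number, 4 vehicle libraries in grey and 6 SP2509 libraries in red). Horizontal lines are the mean over 4 vehicle libraries and over 4 SP2509 units. The groups are apart for H2-Ob, where SP2509 lies at or below 20.9 and vehicle at or above 27.6, and for Ctss, where SP2509 starts at 132 and vehicle ends at 124.

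SP2509 was compared with vehicle, the single contrast of the study. The class II chain genes H2-Aa, H2-Ab1 and H2-Eb1 had fold changes of 1.02, 1.01 and 0.985, with 95% intervals that together ran from 0.843-fold to 1.20-fold. All 95% intervals given here count the 10 libraries as independent, the close pairs included, and may be too narrow. H2-Ob fell by 1.33 on the log2 scale. Ciita had a log2 fold change of -0.78 that missed the threshold, and Ctss (0.62) and Cd74 (0.35) had positive fold changes that missed it as well. Of the 10 members 9 passed the filter on low values (at least 10 normalised reads in at least 4 libraries). Among these 1, H2-Ob, was called lower and none higher at an adjusted p under 0.05 (limma). Over all 17088 genes tested 4.15% were called lower and 4.95% higher, and quantile normalization turned the split from 846 higher and 709 lower genes into 666 higher and 1060 lower ones and upper quartile rescaling into 548 and 1146. At an unadjusted p under 0.05 Ctss and Cd74 were higher and H2-Ob and Ciita lower, where 15.2% of all genes were higher and 12.8% lower. On the recovered whole reads edgeR called 5.34% of genes higher and 3.42% lower and no member, and DESeq2 called Ctss higher and H2-Ob and Ciita lower, where its background was 9.47% higher and 8.12% lower. The median log2 fold change was -0.02 over the 9 members and 0.02 over all genes tested. Fewer cells of a type and less RNA per cell cannot be told apart in these bulk libraries.

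The alpha chain gene H2-Aa (chromosome 17, 34282744 to 34287823, GRCm38) had 658, 731, 708 and 684 normalised reads in vehicle replicates 1 to 4. In SP2509 replicates 1 to 6 it had 863, 752, 679, 674, 715 and 586. SP2509 thus held both the highest and the lowest library, and the vehicle range lay inside the SP2509 range. The means were 695 ± 31.2 (SD, n = 4) and 692 ± 90.8 (SD, n = 4 units). SP2509 over vehicle was 0.02 ± 0.11 on the log2 scale (limma estimate and SE, adjusted p = 0.914).

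Its partner, the beta chain gene H2-Ab1 (chromosome 17, 34257689 to 34269419), had 666, 760, 808 and 860 normalised reads in vehicle and 901, 827, 846, 730, 679 and 689 in SP2509. The 3 higher SP2509 values belonged to replicates 1 to 3 and the 3 lower ones to replicates 4 to 6, all but replicate 1 within the vehicle range. The means were 773 ± 82.7 and 776 ± 91.8, and the log2 fold change was 0.01 ± 0.12 (limma adjusted p = 0.975). Its 95% interval ran from 0.843-fold to 1.20-fold.

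H2-Eb1, the beta chain gene of the second class II isotype (chromosome 17, 34305867 to 34316674), had 653, 685, 705 and 669 normalised reads in vehicle. SP2509 libraries had 746, 728, 711, 631, 646 and 564. Replicates 1 to 3 lay above every vehicle library and replicates 4 to 6 below every one, so the group means of 678 ± 22.5 and 662 ± 77.6 were close while SP2509 varied more. The log2 fold change was -0.02 ± 0.10 (limma adjusted p = 0.917). SP2509 replicate 6, the library low in keratinocyte and high in muscle genes, was the lowest of all 10 libraries for both H2-Aa and H2-Eb1. The part of tissue make-up in these values was not tested.

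The invariant chain gene Cd74 (chromosome 18, 60803848 to 60812652) had 916, 1394, 1398 and 1449 normalised reads in vehicle. SP2509 replicates 1 to 6 had 1774, 1695, 1541, 1653, 1723 and 1359. Of the SP2509 libraries 5 were above every vehicle library, and replicate 6 was below vehicle replicates 2 to 4. The means were 1289 ± 250 and 1581 ± 169 (SD, n = 4 libraries and 4 units). The log2 fold change was 0.35 ± 0.14 (limma adjusted p = 0.136, 0.321 with the pairs averaged). Without vehicle replicate 1, the low library, it was 0.19 (adjusted p = 0.345), and without SP2509 replicate 6 it was 0.40 and passed (adjusted p = 0.0483).

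Set against H2-Ab1 within each library, which removes the scaling, Cd74 was at a log2 ratio of 0.46 to 0.87 in vehicle and 0.86 to 1.34 in SP2509, ranges that met at vehicle replicate 2 and SP2509 replicate 3. The ratio was higher by 0.34 (exact permutation test, two-sided, p = 0.019, adjusted p = 0.0444 over 7 ratios of members). With the pairs averaged it was higher by 0.31 (exact permutation p = 0.0571, adjusted p = 0.133), where 0.0286 is the smallest unadjusted p the 8 units allow. Its call on 10 libraries held in 2 of the 10 fits that left out 1 library, those without vehicle replicate 2 and without SP2509 replicate 3. H2-Ab1 itself was at 0.01, so this ratio largely restates the log2 fold change of Cd74 (0.35) and adds no independent evidence of it. The H2-Aa to H2-Ab1 ratio, in contrast, was -0.15 ± 0.14 in vehicle and -0.13 ± 0.14 in SP2509 (SD over libraries, n = 4 and 6, exact permutation p = 0.867).

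Ctss encodes cathepsin S, which makes the late cuts in CD74 in antigen-presenting cells (chromosome 3, 95526786 to 95556403). It had 81.6, 96.7, 124 and 117 normalised reads in vehicle and 132, 146, 149, 225, 178 and 141 in SP2509. Every SP2509 library was above every vehicle library, as for 6.54% of all genes tested. The means were 105 ± 19.2 and 158 ± 29.6, and the log2 fold change of 0.62 ± 0.19 missed the threshold (limma adjusted p = 0.0581, 0.149 with the pairs averaged). DESeq2 called it (adjusted p = 0.0272), and so did limma without SP2509 replicate 6 (0.65, adjusted p = 0.031). The 2 highest values came from SP2509 replicates 4 and 5, the libraries with mucous gland RNA, and without them the fold change was 0.45 (adjusted p = 0.167). The Ctss to Cd74 ratio was higher by 0.27 on the log2 scale (exact permutation p = 0.143), with overlapping ranges.

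The peptide editor genes were not called. H2-DMa (chromosome 17, 34119541 to 34139101) had 141, 157, 94.3 and 105 normalised reads in the vehicle libraries and 91.2 to 144, with a median of 110, in SP2509. Its log2 fold change was -0.12 ± 0.20 (limma adjusted p = 0.722), and the 95% interval of 0.681-fold to 1.23-fold leaves more room than for the chains. H2-DMb1 (chromosome 17, 34153072 to 34160230) had 109, 131, 70.4 and 112 in vehicle and 76.5 to 112 in SP2509, with a median of 89.4. Its log2 fold change was -0.17 ± 0.20 (limma adjusted p = 0.622). The neighbouring copy H2-DMb2 had 14.1 to 36.8 in vehicle and 7.45 to 25.7 in SP2509 (log2 fold change -0.95 ± 0.42, limma adjusted p = 0.163), and reads may be divided between the 2 closely related genes. H2-DMa shares 360 exon bases with Brd2 on the opposite strand, and the sources used here do not state the strand setting of the counting.

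H2-Ob, the beta chain gene of the H2-DM inhibitor (chromosome 17, 34238903 to 34254414), was the member that fell. It had 46.4, 27.6, 39.4 and 35.9 normalised reads in vehicle replicates 1 to 4. SP2509 replicates 1 to 6 had 14.9, 14.8, 20.9, 4.98, 19.6 and 15.5. All SP2509 libraries were below all vehicle libraries, as for 5.11% of all genes tested. The values rest on 111 reads in vehicle and 114 in SP2509. The means were 37.3 ± 7.78 and 15.9 ± 3.64, and the gene fell by 1.33 on the log2 scale (SE 0.38, limma adjusted p = 0.0476, 0.397-fold with a 95% interval from 0.224 to 0.702). The call was at the edge of the threshold: the adjusted p was 0.0891 with the pairs averaged, 0.0507 by edgeR and 0.00504 by DESeq2, and leaving out any single library other than SP2509 replicate 6 ended it (adjusted p up to 0.131, without vehicle replicate 1). The fold change stayed between -1.48 and -1.07 in all 23 alternatives that tested it.

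The level of H2-Ob was also set against its relatives within each library. Its log2 ratio to H2-Ab1 was -4.73 to -3.82 in vehicle and -6.93 to -5.04 in SP2509, without overlap, a difference of -1.34 (exact permutation test, two-sided, p = 0.00952, adjusted p = 0.0444 over the 7 ratios). Its ratio to H2-DMb1, the beta chain of the editor it restrains, differed by -1.16 (exact permutation p = 0.0143, adjusted p = 0.0444), with ranges of -2.20 to -0.82 and -4.19 to -2.01 that overlapped at vehicle replicate 2. With the pairs averaged the differences were -1.19 and -0.97 (exact permutation p = 0.0286 and 0.0571, adjusted p = 0.133 for both), where 0.0286 is the smallest unadjusted p the 8 units allow. The ratio to H2-Oa, its partner chain, differed by -0.73 and did not pass (exact permutation p = 0.438, adjusted p = 0.511). The calls on the ratios to H2-Ab1 and H2-DMb1 each held in 2 of the 10 fits that left out 1 library, those without vehicle replicate 2 and without SP2509 replicate 3. These ratios were chosen with the fall of H2-Ob known and add no independent evidence of it.

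H2-Oa, the alpha chain gene of the same inhibitor (chromosome 17, 34092340 to 34095234), was the member under the filter. It had 9.27, 4.61, 0 and 14.4 normalised reads in vehicle and 7.45, 2.47, 3.49, 0, 5.09 and 1.63 in SP2509, from 24 and 26 reads in all. The groups overlapped, with SP2509 replicates 1 and 5 above vehicle replicates 2 and 3. The difference in mean log2 value was -0.61, with p = 0.486 in a two-sided exact permutation test and 0.686 over 8 units. H2-Oa shares 321 exon bases with BC051537 on the opposite strand.

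Ciita, the transactivator gene (chromosome 16, 10480059 to 10528418), had 141, 101, 53.5 and 93.4 normalised reads in vehicle. SP2509 replicates 1 to 6 had 42.5, 56.9, 70.7, 44.0, 52.3 and 57.8. Of the vehicle libraries 3 were above every SP2509 library, and vehicle replicate 3 fell inside the SP2509 range. The means were 97.3 ± 35.8 and 56.6 ± 10.3, a log2 fold change of -0.78 ± 0.26 (limma adjusted p = 0.0794, 0.21 with the pairs averaged). Without vehicle replicate 3 the fold change was -1.03 and passed (adjusted p = 0.0402), without vehicle replicate 1 it was -0.57 (adjusted p = 0.225), and DESeq2 called the gene (adjusted p = 0.015).

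The log2 ratio of Ciita to H2-Ab1 was -3.89 to -2.23 in vehicle and -4.38 to -3.55 in SP2509, a difference of -0.79 (exact permutation p = 0.0286, adjusted p = 0.05 over the 7 ratios, which does not pass). With the pairs averaged the difference was -0.71 (exact permutation p = 0.114, adjusted p = 0.2). H2-Ab1 itself was at 0.01, so this ratio largely restates the log2 fold change of Ciita (-0.78). It adds no independent evidence of that fold change. Ciita uses separate promoters in dendritic cells, in B cells and after interferon gamma, which a gene count does not tell apart. The gene shares 329 exon bases with Dexi on the opposite strand.

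**Figure D2:**
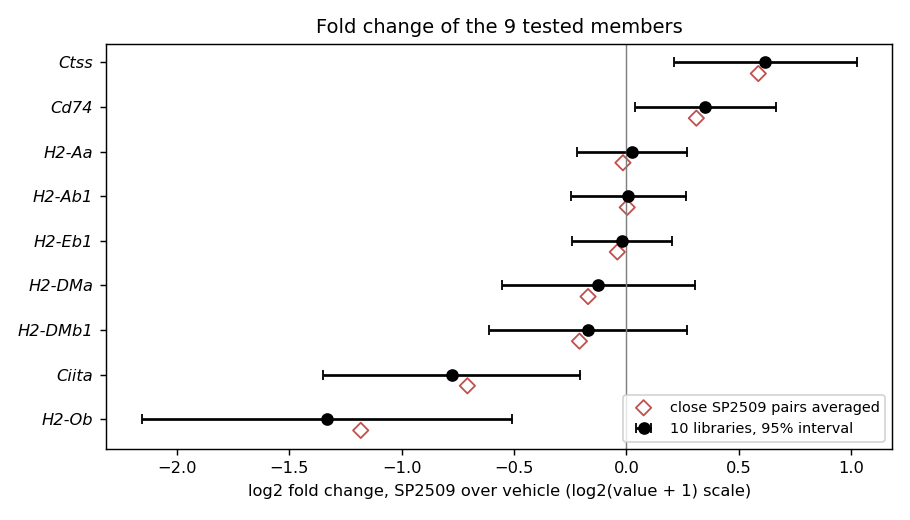
Log2 fold change of SP2509 over vehicle on the log2(value + 1) scale (x axis) for the 9 members that passed the filter (y axis). Black points and bars are the limma estimate over 10 libraries and its 95% interval, and red diamonds are the estimate with the close SP2509 pairs averaged. The chain genes centre on 0 with the shortest bars, H2-Ob lies at -1.33 and Ctss at 0.62.

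**Figure D3:**
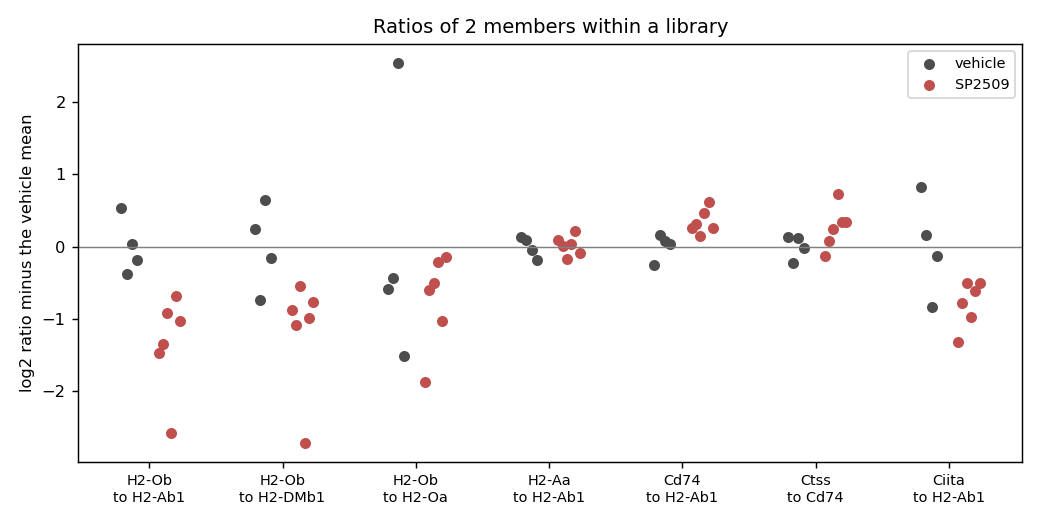
Log2 ratio of 2 members within a library, minus the vehicle mean of that ratio (y axis), for 7 ratios (x axis), with 4 vehicle libraries in grey and 6 SP2509 libraries in red. H2-Ob to H2-Ab1 is separate between the groups, H2-Aa to H2-Ab1 is mixed, and the single high vehicle point of H2-Ob to H2-Oa is replicate 3, where H2-Oa had no read.

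The other genes of the pathway were read from a list of 33 loading, processing and transcription genes. Of these, H2-Eb2 was not found by its symbol among the deposited genes, and 30 passed the filter. In this list 3 were called higher and none lower (limma), against 4.95% and 4.15% of all genes, and the median log2 fold change was 0.18. All 3 were endosomal protease genes, while the further protease genes Ctsh (0.01 ± 0.12), Ctsz (0.24 ± 0.10) and Lgmn (0.39 ± 0.20) were not called (limma adjusted p = 0.983, 0.152 and 0.229). Ctsl, the cathepsin that takes the place of cathepsin S in thymic epithelium and is also found in keratinocytes, rose by 0.88 (SE 0.18, limma adjusted p = 0.0175), from 450 to 857 normalised reads in vehicle to 989 to 1537 in SP2509. Ctsb rose by 0.78 (SE 0.16, limma adjusted p = 0.017), with vehicle at 1354 to 2284 and SP2509 at 2757 to 3777. Ctsd, an aspartic protease gene, rose by 0.58 (SE 0.14, limma adjusted p = 0.0316), with vehicle at 2579 to 3679 and SP2509 at 4024 to 5719. Each of the 3 had every SP2509 library above every vehicle library, as for 6.54% of all genes tested, which is not independent of their calls. With the pairs averaged their adjusted p-values were 0.0751, 0.0751 and 0.0964. No pathway gene was called higher without vehicle replicate 1 or without SP2509 replicates 4 and 5, and 6 were without SP2509 replicate 6.

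Close to the threshold stood Cst3, an inhibitor of these cysteine proteases, at a log2 fold change of 0.66 ± 0.19 (limma adjusted p = 0.0525). Sppl2a, the protease that removes the membrane stub of CD74, was at 0.42 ± 0.13 (limma adjusted p = 0.0601), and its SP2509 libraries (688 to 993 normalised reads) were all above the vehicle libraries (567 to 655). The kinase gene Jak1 was at 0.28 ± 0.09 (limma adjusted p = 0.0662), also without overlap. In all, 5 of the 30 tested pathway genes were separated upward in this way, where 6.54% of all genes tested were. The thiol reductase gene Ifi30 (0.22 ± 0.17, limma adjusted p = 0.432) and the class II ubiquitin ligase gene March1 (-0.29 ± 0.36, limma adjusted p = 0.636) did not pass.

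The factors that bind the X and Y boxes were not called. Rfx5 was at -0.29 ± 0.21, Rfxank at -0.28 ± 0.14 and Rfxap at 0.24 ± 0.15 on the log2 scale (limma adjusted p = 0.384, 0.214 and 0.306). The NF-Y subunit genes Nfya, Nfyb and Nfyc lay between -0.13 and 0.18. Upstream of Ciita, Irf1 had 435 to 563 (vehicle) and 378 to 459 (SP2509) normalised reads (-0.19 ± 0.11, limma adjusted p = 0.272). Irf8, a factor of dendritic cells and B cells, was at 230 and 220 normalised reads in SP2509 replicates 4 and 5, at 73.3 to 96.8 in the other SP2509 libraries and at 142 to 171 in vehicle. Its fold change was -0.39 ± 0.33 (limma adjusted p = 0.47). Without replicates 4 and 5 it was 1 of 169 genes called lower among 16518 tested. That fit was chosen after seeing the data and leaves out the libraries where Irf8 was high. Its call was thus largely fixed by the choice and is a description.

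Markers of the cells that carry class II were read beside these genes. Their calls stand against 4.95% of all genes called higher and 4.15% called lower, and no marker call held with the pairs averaged. All 10 dendritic cell genes had a negative log2 fold change, with a median of -0.71. Their summed level was 518 to 640 (vehicle) and 307 to 475 (SP2509) normalised reads. Itgax, which encodes CD11c, was called lower (-1.06 ± 0.27, limma adjusted p = 0.0351, 0.108 with the pairs averaged), at 76.3 to 150 in vehicle and at most 69.8 in SP2509, and Flt3 was closest among the others (-1.497 ± 0.45, limma adjusted p = 0.0581). H2-Ab1 beside them was at 0.01 ± 0.12. Their part in the values of the members was not tested.

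Of the 8 B cell genes 3 passed the filter. Blnk, an adaptor of B cell receptor signalling, was the most abundant, at 65.5 to 130 in vehicle and 62.7 to 116 in SP2509 (-0.07 ± 0.23, limma adjusted p = 0.87). The summed level of all 8 was 144 to 261 (vehicle) and 112 to 169 (SP2509) normalised reads. Cd22, a B cell receptor regulator, was called lower (-2.32 ± 0.54, limma adjusted p = 0.025, 0.0751 with the pairs averaged), at 13.8 to 21.1 in vehicle and 0.83 to 6.70 in SP2509, but it passed the filter through the vehicle libraries alone, so its difference is a description. Under the filter, Pax5, which specifies B cells, had 27.8, 16.9, 22.5 and 4.49 normalised reads in the vehicle libraries and 1.45 to 5.77 in SP2509. Cd79a had 5.56, 27.6, 25.3 and 23.3 in vehicle and 0.83 to 5.96 in SP2509. Cd79b, in contrast, had 14.1 to 35.3 and 8.19 to 43.1 (-0.41 ± 0.47, limma adjusted p = 0.605). The part of B cells in the values of H2-Ob was not tested.

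Among 10 macrophage genes C1qb, a complement gene, was called higher (0.92 ± 0.24, limma adjusted p = 0.0357, 0.124 with the pairs averaged), with 141 to 302 (vehicle) and 289 to 569 (SP2509) normalised reads. Mertk, a receptor for dying cells, was called lower (-0.53 ± 0.13, limma adjusted p = 0.0333, 0.108 with the pairs averaged). The list's median was 0.17 and its summed level was 2150 to 2388 in vehicle and 2400 to 3244 in SP2509. C1qb reached its highest values, 569 and 537, in SP2509 replicates 4 and 5, the libraries where Ctss was highest too. The Langerhans cell gene Cd207 had 11.3 to 29.7 (vehicle) and 7.32 to 37.8 (SP2509) normalised reads (-0.41 ± 0.47, limma adjusted p = 0.607). Neither the 4 genes of all leukocytes (summed level 666 to 837 in vehicle and 569 to 715 in SP2509) nor the 6 T cell genes, of which 4 passed the filter (81.6 to 221 and 69.2 to 120), held a called gene. Closest were Lck (-1.15 ± 0.35), Coro1a (-0.37 ± 0.11) and Ptprc (-0.69 ± 0.22), with limma adjusted p = 0.0583, 0.0616 and 0.0711. Coro1a had every SP2509 library (254 to 350) below every vehicle library (367 to 402), as for 5.11% of all genes tested. In each of these lists 2 tested genes had a positive and 2 a negative fold change. No marker was at 0 in every library. The part of these cells in the values of the members was not tested.

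**Figure D4:**
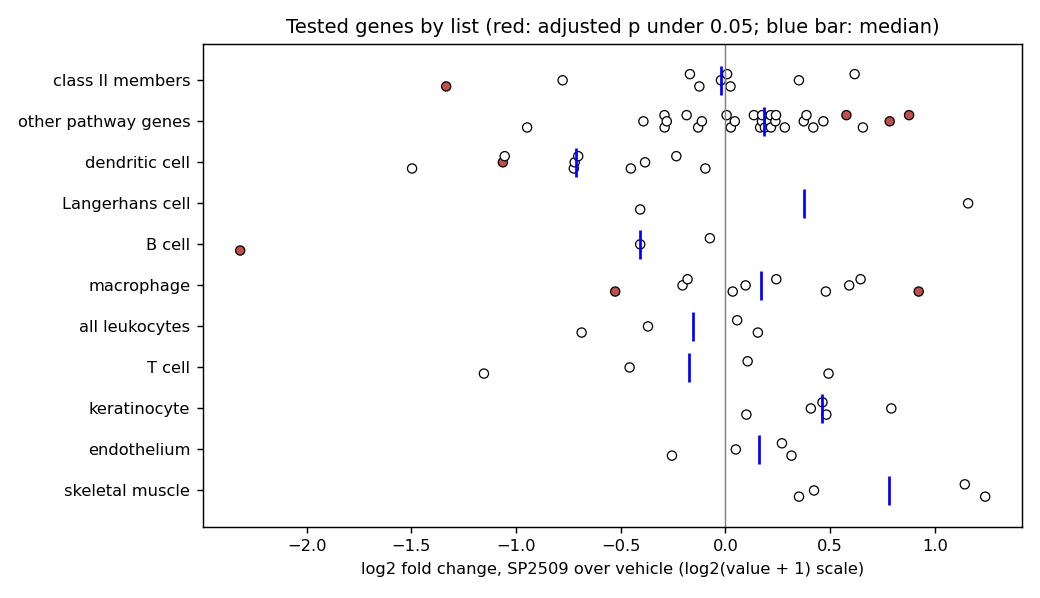
Log2 fold change of SP2509 over vehicle (x axis, log2(value + 1) scale) of each gene that passed the filter, by list (y axis). Red points passed at an adjusted p under 0.05 in limma, white points did not, and blue bars are list medians, at -0.02 for the members, 0.18 for the other pathway genes and -0.71 for the dendritic cell genes.

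Across the 8 units, H2-Ab1 was most like H2-Eb1 among the members (Pearson r = 0.744 and Spearman rho = 0.786 on log2 values), followed by H2-Aa (r = 0.602) and Cd74 (r = 0.589). Ciita (r = -0.25), H2-Ob (r = 0.0256), H2-DMa (r = -0.0598) and H2-DMb1 (r = -0.186) had lower coefficients. Outside the lists, the 5 genes of 11900 with the highest Pearson r were Zfp462 (0.957), Pdlim2 (0.926), Xaf1 (0.906), Oas2 (0.905) and Nom1 (0.904). Of these 5, Xaf1 and Oas2 are interferon-induced genes, and a link between interferon and H2-Ab1 was not tested. These coefficients describe 8 units that share 1 scaling, and were picked as the highest of many.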

How the data were processed

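Poly-A RNA of 10 tongue samples was sequenced, per the labels' protocols, and HISAT2, featureCounts and the build mm10 appear, without versions, in the submitters' processing notes. The deposited signal values are read counts divided by 1 factor per library. This was read from the values, of which 100% gave whole reads (tolerance 0.01) after division by the library's step. That step, the worth of 1 read, was 0.898 to 1.85 for vehicle libraries and 0.727 to 0.873 for SP2509 libraries. Symbols were matched for 27113 of 27151 IDs. Coordinates and exon lengths come from GENCODE M21 (GRCm38, the same build as mm10).

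limma (3.58.1, R 4.3.3, intensity trend, robust empirical Bayes) was fitted to log2(value + 1) of 17088 genes with at least 10 normalised reads in at least 4 libraries, over 10 libraries, two-sided, with Benjamini-Hochberg adjustment over all genes. The added 1 draws fold changes of low genes towards 0. H2-Ob was at -1.37 with a pseudocount of 0.5 and -1.11 with 5, while edgeR gave -1.26 and DESeq2 -1.31 on reads. Ratios of 2 members were compared by exact permutation tests over 210 regroupings of 10 libraries or 70 of 8 units. Alternatives included edgeR (4.0.16) and DESeq2 (1.42.0) on recovered reads. Leaving out SP2509 replicates 4 and 5, and summing the close pairs in edgeR, were chosen after seeing the data. The fit was checked on simulated data. Python 3.11.15 and matplotlib 3.10.9 drew the figures.

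Named genes were the 10 members, pathway and marker genes past the test or with the smallest p, and the 5 genes most like H2-Ab1 at a mean of at least 50. Other list genes (among them Ctsh, Ctsz, Lgmn, Blnk, Ifi30, March1, Rfx and Nfy genes, Irf1, Irf8, Pax5, Cd79a and Muc5b) were named for their role or after their values were seen. The members and lists were chosen with earlier results of these data known. Results of 2 list genes are not reported here.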

Additional observations from a re-analysis of the deposited data

Results flagged for a closer look

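Cd74 in vehicle replicate 1 stood at 916 normalised reads, far below the other 3 vehicle libraries at 1394 to 1449. Its gap to the nearest of them was 0.897 of the group's range. It was 1 of 20 sets of values checked in this way (10 genes in 2 groups), and chance marks about 1 in 20.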

How the results depend on the processing

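Where a value changed with the processing, the cause was not tested. Members called higher numbered 0, 1 with library weights (Cd74) and 1 by DESeq2 (Ctss), and 0 to 2 when single libraries were left out. The 1 member called lower became 0 without the filter, with a filter in all libraries (where H2-Ob was not tested), quantile normalization, limma without trend, the replicate block, the close pairs averaged, edgeR, edgeR with the close pairs summed, and without SP2509 replicates 4 and 5. It became 2 with library weights and by DESeq2 (H2-Ob and Ciita), and 0 to 1 when single libraries were left out. Pathway genes called higher numbered 7 with library weights, 6 by DESeq2 and 0 with the pairs averaged, with the pairs summed or without SP2509 replicates 4 and 5, and 0 to 6 when single libraries were left out. Pathway genes called lower numbered 1 with library weights (H2-DMb2) and 1 without SP2509 replicates 4 and 5 (Irf8, which was high in those libraries).

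The H2-Ob to H2-Ab1 ratio difference lost its call with the pairs averaged (-1.19) and without SP2509 replicates 4 and 5 (-1.19), with a range of -1.47 to -1.09 when single libraries were left out. The H2-Ob to H2-DMb1 difference lost it at a pseudocount of 5 (-0.95), with the pairs averaged (-0.97) and without replicates 4 and 5 (-0.82), with a range of -1.41 to -0.85. The Cd74 to H2-Ab1 difference lost it in the same settings (0.34, 0.31 and 0.24), with a range of 0.26 to 0.39. H2-Aa to H2-Ab1 turned to -0.0191 with the pairs averaged and -0.0395 without replicates 4 and 5 (range -0.0443 to 0.0603), and H2-Ob to H2-Oa ranged from -1.24 to 0.12. For H2-Ob to H2-Ab1, H2-Ob to H2-DMb1 and Cd74 to H2-Ab1 alike, 8 of the 10 fits without a single library also lost the call (adjusted p up to 0.139, 0.188 and 0.139). With the pairs averaged, H2-Ob to H2-Ab1 had the smallest exact permutation p that 8 units allow (0.0286). A single p of that size cannot pass adjustment over 7 ratios, so that loss was largely fixed by the number of units.

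Fold changes near 0 turned sign. H2-Aa was at -0.0409 with quantile normalization, -0.0543 with upper quartile rescaling and -0.0156 with the pairs averaged (leave-one-out -0.0332 to 0.0781). H2-Ab1 was at -0.0590 with quantile normalization, -0.0706 with upper quartile rescaling and -0.0055 by DESeq2 (leave-one-out -0.0621 to 0.0611). H2-Eb1 was at 0.0606 with library weights, 0.0515 with the replicate block, 0.0159 by edgeR and 0.0110 without replicates 4 and 5 (leave-one-out -0.0531 to 0.0273). H2-DMa was at 0.13 with library weights and 0.0065 with the replicate block.

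Calls over all genes were 846 higher and 709 lower. They were 1618 and 1388 by DESeq2, 2381 and 1778 with library weights, 458 and 448 without trend, 553 and 479 without the filter, and 233 and 169 without SP2509 replicates 4 and 5. Leaving out single libraries gave 171 to 1987 higher and 106 to 1500 lower. With the pairs averaged limma made 0 calls (3632 genes at an unadjusted p under 0.05), and edgeR with the pairs summed made 0 (3875). Same-numbered libraries of the 2 groups did not deviate together (r = 0.126, 0.0324, -0.198 and 0.125) and share only a number. The replicate block gave 1125 and 769 calls and an adjusted p of 0.0568 for H2-Ob. Depth limits H2-Oa and H2-Ob most, at 24 and 111 reads in vehicle.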
